A study of Drosophila melanogaster with 2 samples.

Results

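The 10 genes described here are core genes of the Notch pathway: N, Dl, Ser, Su(H), H, mam, neur, numb, kuz and fng. They were taken by symbol from the Ensembl annotation of the fly genome, which holds 13945 protein-coding genes on the 6 chromosome arms with peaks, and for each gene every peak summit in the gene body or within 10 kb of it was collected. The annotation lists Dl under the name Delta (FBgn0000463). The peaks mark binding of fd3F, a forkhead transcription factor of chordotonal (stretch-sensing) neurons, mapped by chromatin immunoprecipitation and sequencing (ChIP-seq) with an antibody against green fluorescent protein (GFP). All samples were whole Drosophila melanogaster embryos of the strain fd3F-GFP, collected at 8 to 18 h by the samples' source names (the separate age field holds a number that cannot be read as that range), from a transgenic line that stably carries fd3F with GFP at its C-terminus. There was 1 group of 2 biological replicates, numbered 1 and 3, and no untreated or mutant group, so the values below are descriptions of the replicates and not a contrast. The labels name a control experiment, whose data were not used here. The promoter that drives the transgene is not given in the sources used here, and binding in whole embryos cannot be assigned to a cell type.

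Notch is a cell-surface receptor that reads ligands, Delta and Serrate, on neighbouring cells. Ligand binding lets the protease Kuzbanian and then the gamma-secretase complex cut the receptor, and the freed intracellular part joins the DNA-binding protein Su(H) and the coactivator Mastermind in the nucleus. In the embryonic nervous system the pathway limits how many cells become neural precursors and, with its inhibitor Numb, gives sister cells of a sense organ lineage different fates.

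Peaks came in 4 deposited lists: 30000 for replicate 1, 30000 for replicate 3, 30000 for both replicates pooled, and 3917 reproducible peaks, which were the 3917 of highest signal in the pooled list. The signal is the value the authors deposited for each peak, and its scale belongs to its own list, so replicates are set side by side by their ranks, where 1 is the highest signal. Pooled signals ran from 26.5 to 3902.7 with a median of 42.6, and the reproducible list began at 114.8 with a median of 197.3. Of the 30000 pooled peaks 10181 had a deposited q-value of at most 0.05, so most were above that limit. Sequencing depth is unknown, since the lists hold no read counts.

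Of the 10 genes, 5 had a reproducible fd3F summit in their locus (gene body and 10 kb each side) and the other 5 had none. Reproducible summits lay in the loci of mam (7), neur (3), N (2), numb (2) and H (1), 15 in all. None lay in the loci of the ligand genes Dl and Ser, of Su(H), of kuz or of fng. Among all protein-coding genes 59.9% had a reproducible summit in a locus drawn the same way, and among the 4220 whose body length lay between that of the shortest and longest of the 10 genes (3.8 and 89.3 kb) the share was 69.0%, so 5 of 10 is not above the background. The 15 summits ran from rank 214 to rank 3479 of 3917, with a median signal of 227, and 9 of them were above the list's median. Summed over the 10 loci there were 2.88 per 100 kb, against 2.93 per 100 kb of the chromosome arms, but that sum rested on mam: without it, a choice made after seeing the data, the other 9 loci held 8 summits, or 1.85 per 100 kb. Locus by locus the median of the 10 genes was 1.74 per 100 kb, against a median of 4.24 over all protein-coding loci, with quartiles of 0 and 8.34. The median gene body was 23.6 kb for the 10 genes and 2.2 kb for all protein-coding genes. Density comparisons with all protein-coding loci, here and below, were not matched for that length.

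**Figure D1:**
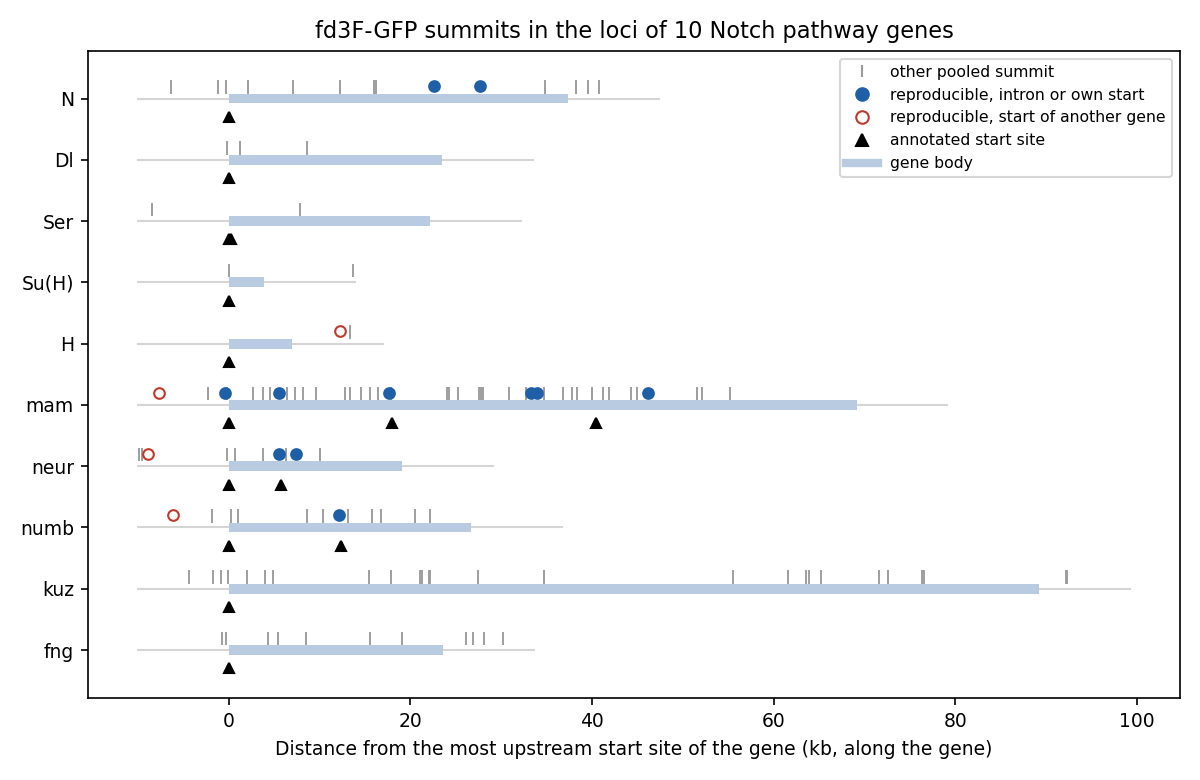
Positions of fd3F-GFP summits in the loci of the 10 genes, as distance in kb from each gene's most upstream start site; bars are gene bodies, triangles annotated start sites, ticks pooled summits and circles reproducible summits (open where they lie at the start of another gene). Reproducible summits lie in 5 loci, and mam holds 7 of the 15.

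Fewer of these reproducible summits could be tied to the start of the gene itself. Of the 15, 4 lay within 1000 bp of a start site of the pathway gene, 7 in its introns, and 4 within 1000 bp of the start of a neighbouring gene. Only 6 of the 15 had a start of the pathway gene as the nearest annotated start of any gene. A start-site summit was thus present at 3 of the 10 genes (mam, neur and numb), where 20.8% of all protein-coding genes had one and 29.5% of those with bodies of like length did. The 7 intronic summits were the ones more than 1000 bp from every annotated start, or 46.7% (exact 95% interval 21.3 to 73.4%), against 39.0% of all reproducible summits. The exact intervals here and below cover counting error only.

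In the receptor gene N (FBgn0004647, chrX:3134870-3172221) the reproducible binding was intronic and far from the start. The stronger summit lay in intron 5 of 8, 27689 bp downstream of the only annotated start (peak chrX:3162396-3162672). Its signal was 344.5 in the pooled list (rank 831), 161.8 in replicate 1 (rank 958) and 177.3 in replicate 3 (rank 790). Both replicates placed it at the same spot, with summits 0 and 3 bp from the pooled one. The weaker summit lay in intron 4, 22626 bp from the start, with signals of 137.9 (pooled, rank 3136), 73.7 (replicate 1, rank 3179) and 72.2 (replicate 3, rank 2918). Both lay nearer to the start of a neighbouring gene, CG18508, the stronger at 10581 bp and the weaker at 15644 bp. The start of N itself had a summit 355 bp upstream that stayed below the reproducible list, with a pooled signal of 82.1 (rank 5883) and ranks of 6765 and 4213 in replicates 1 and 3. The sequence at the stronger summit is shown as the highest of the locus, with its forkhead word in capitals. This sequence and those below are the RefSeq reference, Release 6 (build dm6), plus strand, 30 bp each side of the summit.
N intron 5, chrX:3162529-3162589: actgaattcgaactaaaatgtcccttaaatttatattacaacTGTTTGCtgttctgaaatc

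The ligand genes Dl (FBgn0000463, chr3R:19302731-19326217) and Ser (FBgn0004197, chr3R:27172090-27194267) had few and weak summits. Dl had 3 pooled summits in its locus, 5 in replicate 1 and 3 in replicate 3. The highest pooled one (signal 51.9, rank 11084) lay in intron 1, 1210 bp downstream of the start. It had a match in replicate 1 (signal 37.1, rank 9589) and none in replicate 3. None of the 3 Dl summits was matched in both replicates, and the same held for the 2 of Ser. No pooled summit of either gene had a q-value of at most 0.05. Ser's highest pooled summit (signal 48.5, rank 12354) lay in intron 4, 7603 bp from the start and had a match in replicate 3 only (signal 21.8, rank 14225). A summit 476 bp upstream of Ser, in the replicate 3 list only, had a signal of 25.8 and rank 10713. With 6.90 and 4.74 pooled summits per 100 kb of locus, Dl and Ser were below the lower quartile of all protein-coding loci (13.7, with a median of 27.5), as were Su(H) at 8.39 and H at 7.41. In replicate 1 Dl (11.5), Ser (2.37) and Su(H) (12.6) were below that list's lower quartile of 13.4, and H at 14.8 was not. In replicate 3 Dl (6.90), Ser (9.48) and H (7.41) were below the lower quartile of 14.3, and Su(H) at 21.0 was not. The reproducible summits nearest to their starts were 77049 and 40348 bp away.

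Binding at neur (FBgn0002932, chr3R:9020348-9039471), whose product is the ubiquitin ligase that drives ligand endocytosis, lay around its inner start site. The gene has a start at 9039471 and another at 9033731. A reproducible summit 232 bp upstream of the inner start had signals of 284.9 (pooled, rank 1157), 170.6 (replicate 1, rank 883) and 117.3 (replicate 3, rank 1535). The highest summit of the locus lay 1694 bp downstream of the same start, in intron 1, with signals of 435.7 (rank 547), 241.7 (rank 459) and 202.5 (rank 629) in the same order. Both replicates ranked the intron summit ahead of the one at the start. At the outer start the highest pooled signal was 78.1 (rank 6263), and the best ranks there were 8681 in replicate 1 and 3544 in replicate 3. The summit there lay nearer to the start of another gene, hyx, at 90 bp. The remaining reproducible summit (signal 217.9, rank 1699) lay 8868 bp upstream of neur and 306 bp upstream of Mst85C, with starts of Nmdmc and Rel also within 1000 bp. Both inner summits are shown, and neither 61 bp window holds a whole forkhead word. At the intron summit a word (ACAAATA) is centred 32 bp to its left on the plus strand, across the edge of the window printed.
neur intron 1, chr3R:9032007-9032067: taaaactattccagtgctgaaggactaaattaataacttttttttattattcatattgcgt
neur inner start, chr3R:9033933-9033993: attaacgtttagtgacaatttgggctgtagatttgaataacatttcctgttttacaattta

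The same placement was seen at numb (FBgn0002973, chr2L:9437469-9464184), which encodes the membrane-associated inhibitor of Notch that sister cells inherit unequally. Its inner start, at 9449830, had a reproducible summit 179 bp upstream with signals of 495.9 (pooled, rank 435), 238.2 (replicate 1, rank 477) and 256.6 (replicate 3, rank 410). Its outer start, at 9437469, had a best pooled signal of 61.2 (rank 8666). The best ranks at that outer start were 8015 in replicate 1 and 6632 in replicate 3, so both replicates put the inner start far ahead. In the pooled list the highest summit of the numb locus was, by a small margin, at another gene. It lay 6162 bp upstream of numb but 98 bp upstream of scat, with the start of FucTB also within 1000 bp. Its signals were 502.9 (pooled, rank 424), 181.0 (replicate 1, rank 794) and 314.9 (replicate 3, rank 268). The replicates differed on the order: replicate 1 ranked the inner start of numb higher, and replicate 3 the summit at scat. The windows of the summit at the inner start and of that at scat are set together, and only the latter holds a forkhead word, in capitals.
numb inner start, chr2L:9449621-9449681: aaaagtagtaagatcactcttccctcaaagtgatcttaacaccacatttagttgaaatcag
scat start in the numb locus, chr2L:9431277-9431337: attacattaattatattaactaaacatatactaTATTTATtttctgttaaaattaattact

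Across the 15 annotated start sites of the 10 genes, 4 had a reproducible summit and 12 a pooled one. At neur and numb it was the inner start, and at mam the outer and the middle one of 3. Over all protein-coding genes with a further start more than 2000 bp downstream, the most upstream start had a reproducible summit in 24.2% of genes, and 18.3% of the further starts had one. Those shares leave out genes with 1 start, as 6 of the 10 have, and no share over all annotated starts was counted. The comparison of single starts was chosen after the positions had been seen.

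**Figure D2:**
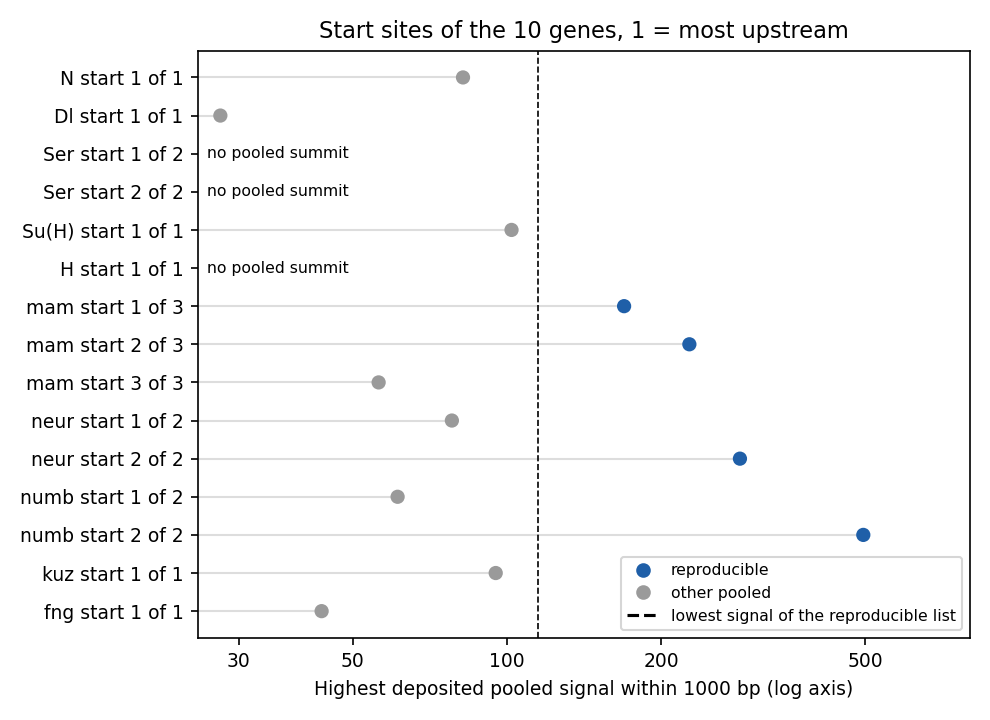
Highest deposited pooled signal within 1000 bp of each of the 15 start sites (log axis), numbered from the most upstream; the dashed line is the lowest signal of the reproducible list, 114.8. The inner starts of neur and numb, at 284.9 and 495.9, stand above their outer starts, at 78.1 and 61.2.

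The protease gene kuz (FBgn0259984, chr2L:13550139-13639411) was the longest of the 10 and had no reproducible summit. Its locus had 26 pooled summits, 24 in replicate 1 and 25 in replicate 3, of which 20, 17 and 19 lay in the gene body. Per 100 kb of locus these came to 23.8, 22.0 and 22.9. The medians over all protein-coding loci were higher, at 27.5, 29.4 and 24.1. The highest pooled one (signal 101.6, rank 4552) lay in intron 3, which is 50958 bp long, 22006 bp from the start, with ranks of 5319 and 4201 in replicates 1 and 3. At the start itself a summit 132 bp upstream had a pooled signal of 95.1 (rank 4943), with rank 4978 in replicate 1 and 12118 in replicate 3, so the replicates ranked it differently. Of 214 protein-coding genes with at least 26 pooled summits in the locus, kuz was the 1 without a reproducible summit. The count of 26 is that of kuz itself and was used after it had been seen. In the 3917 highest peaks of replicate 3 alone the kuz locus did have a summit (rank 3405), 471 bp upstream of its neighbour B4 and 1897 bp upstream of kuz.

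The glycosyltransferase gene fng (FBgn0011591, chr3L:20925891-20949512), whose product changes which ligand Notch answers to, had 11 pooled summits, 9 in replicate 1 and 16 in replicate 3, all of low signal. The highest pooled one (signal 66.6, rank 7732) lay past the end of the gene, 922 bp upstream of a long non-coding RNA gene, lncRNA:CR43929, and had ranks of 9096 and 7813 in replicates 1 and 3. At its start the best pooled signal was 43.5 (rank 14506).

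Of the nuclear genes, Su(H) (FBgn0004837, chr2L:15039488-15043334), which encodes the DNA-binding protein of the pathway, had its summit at the start but just under the reproducible list. It lay 28 bp upstream of the start with a pooled signal of 102.1 (rank 4517), where the list ends at 114.8, and had signals of 43.6 in replicate 1 (rank 7164) and 51.2 in replicate 3 (rank 4342). Both replicates had the summit, and the start of CIAPIN1 also lay within 1000 bp of it. H (FBgn0001169, chr3R:20621938-20628915), the corepressor that binds Su(H), had no summit in its body in the pooled list or in either replicate. The 1 reproducible summit of its locus lay 12233 bp downstream of its start and 561 bp inside Pi3K92E, with signals of 179.6 (pooled, rank 2248), 84.7 (replicate 1, rank 2602) and 98.4 (replicate 3, rank 1963). Its sequence is given as the only reproducible summit of the H locus, and it holds no forkhead word.
Pi3K92E in the H locus, chr3R:20634141-20634201: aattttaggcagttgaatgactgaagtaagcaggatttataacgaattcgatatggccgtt

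The coactivator gene mam (FBgn0002643, chr2R:13991203-14060356) held the most summits of the 10 genes in every list, but also has a long locus. Its 7 reproducible summits came to 7.85 per 100 kb of locus, close to the 7.67 of neur. Both were below the upper quartile of all protein-coding loci in the reproducible list (8.34). The mam locus held 42 of the 124 pooled summits of the 10 loci, or 47.1 per 100 kb. That was above the upper quartile of all protein-coding loci in the pooled list (41.9). In the replicate 1 list it had 44.9 per 100 kb, just below that list's upper quartile of 46.1 and the 46.0 of neur. In the replicate 3 list it had 39.3, above the upper quartile of 35.5, as was fng at 36.7. The highest summit of all 10 loci lay in its intron 3 of 6, 6539 bp upstream of the last start (peak chr2R:14024972-14025321). Its signal was 720.1 in the pooled list (rank 214), 341.9 in replicate 1 (rank 240) and 380.2 in replicate 3 (rank 189). It was thus among the 240 highest peaks of every list. A weaker reproducible summit, with a signal of 165.6 (rank 2522), lay 607 bp away from it. For both, the nearest annotated start was not that of mam but that of CG18371. It was 3496 bp from the stronger summit and 4103 bp from the weaker one. At the middle start of mam a summit 364 bp upstream had signals of 227.0 (pooled, rank 1608), 120.9 (replicate 1, rank 1550) and 105.9 (replicate 3, rank 1748). The one at the outer start (signal 169.3, rank 2451) lay 417 bp upstream of mam and 79 bp upstream of its divergent neighbour RN-tre, so the summit cannot be given to either gene. Intron summits of mam at 126.3 and 135.0 were close to the lower end of the reproducible list, and replicate 1 ranked them 5475 and 4085, where replicate 3 had 2587 and 2579. The remaining one (signal 341.7, rank 842) lay at the start of CG8067, 98 bp into that gene and 7710 bp upstream of mam, with the start of Ctf4 also within 1000 bp.

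**Figure D3:**
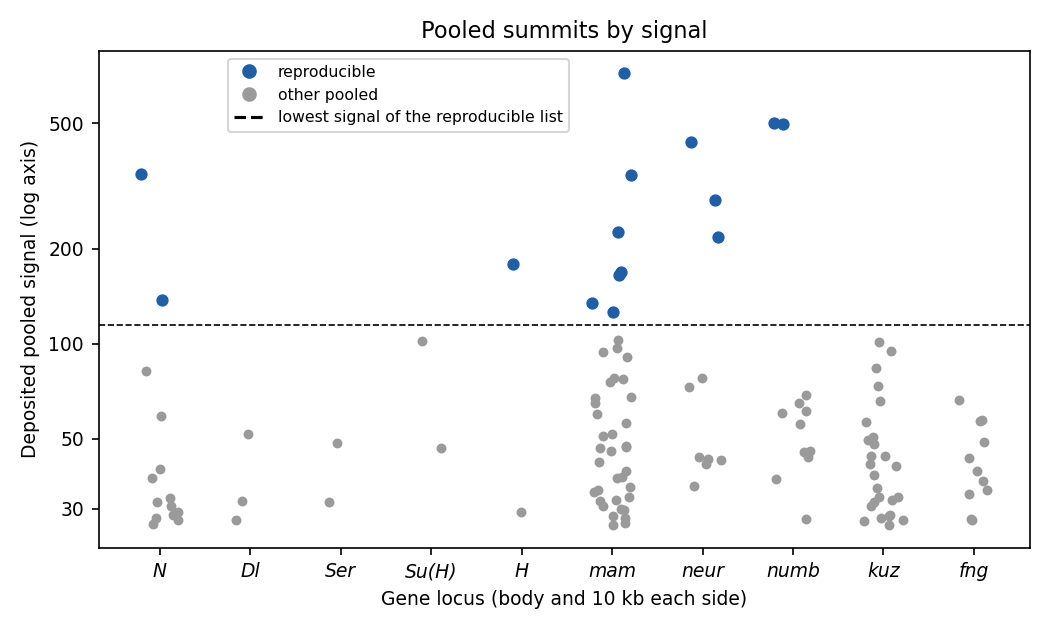
Deposited signal of the 124 pooled summits by locus (log axis); points are summits, spread sideways for legibility, blue those in the reproducible list, and the dashed line is the lowest signal of that list, 114.8. The highest point of each of Dl, Ser and fng lies at 51.9, 48.5 and 66.6, while Su(H) and kuz reach 102.1 and 101.6, just below the line.

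The weaker pooled peaks reached all 10 loci, as they did 91.3% of protein-coding genes. At a q-value of at most 0.05, 46 of the 124 summits remained, in all loci but those of Dl and Ser. A pooled summit lay at a start of 8 of the 10 genes (all but Ser and H), where 58.4% of protein-coding genes had one. The 124 summits came to 23.8 per 100 kb of locus, against 22.4 per 100 kb of the arms, and to 19.0 without mam. By position, 74 lay in introns of the 10 genes, 21 at their own starts, 22 at starts of other genes, 4 inside other genes and 3 between genes. Few lay in coding exons: 2 of 124 summits (1.61%, exact 95% interval 0.196 to 5.70%) lay in coding sequence of any gene, against 8.49% of all pooled summits. None of the 15 reproducible summits did, against 0.434% of all reproducible ones. Coding sequence made up 19.1% of the 10 loci and 17.1% of the chromosome arms.

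Every reproducible summit of the 10 loci was found in both replicate lists, as 98.3% of all reproducible peaks were. The reproducible list was itself selected from these replicates, so this match was largely built in and is no independent check. Their summits lay a median of 9 bp from the replicate 1 match and 34 bp from the replicate 3 match, and at most 76 and 101 bp. All 15 matches ranked among the 3917 highest in replicate 3, and 13 did in replicate 1, the exceptions being both weak intron summits of mam. Each replicate's own 3917 highest peaks gave 14 and 18 summits in the 10 loci for replicates 1 and 3, in 5 and 6 genes, where 59.2% and 60.2% of all protein-coding genes had one. A start-site summit was present at 3 of the 10 genes in each, against 20.1% and 21.3% of protein-coding genes. Over all pooled summits of the loci 79 of 124 (63.7%, exact 95% interval 54.6 to 72.2%) were matched in replicate 1 and in replicate 3, against 52.4% of all 30000. By gene these were 31 of 42 for mam, 16 of 26 for kuz, 8 of 12 for numb, 8 of 11 for fng and 7 of 10 for neur. They were 6 of 14 for N, both of Su(H), 1 of 2 for H and none for Dl and Ser. Neighbouring pooled summits can match the same replicate peak, so they are not independent and the interval is too narrow. No share without mam was counted. Across the 79, which share the same libraries and include pooled summits matched to the same replicate peak, Spearman's rho between the replicates' signals was 0.567, and Pearson's r of their log2 signals was 0.807.

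**Figure D4:**
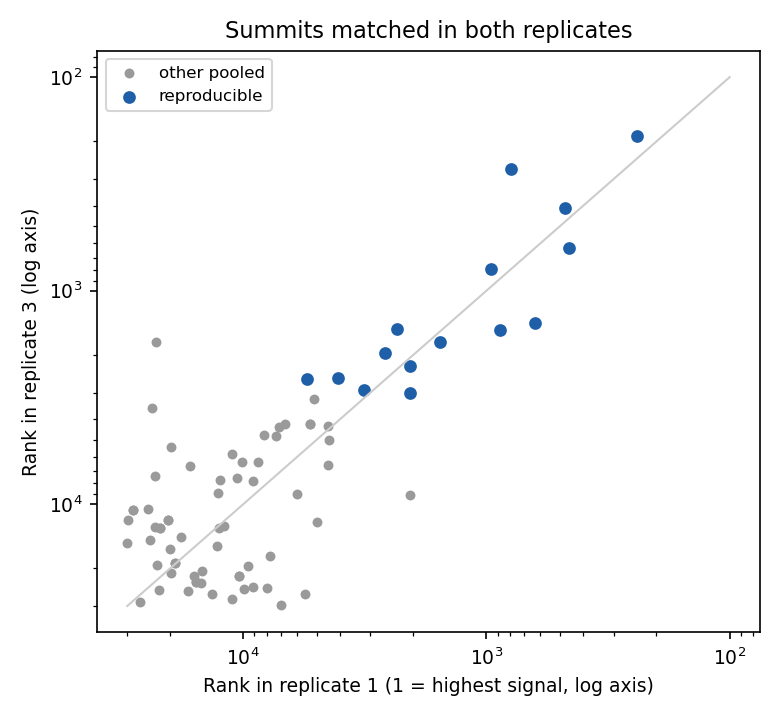
Rank in replicate 1 against rank in replicate 3 for the 79 pooled summits of the 10 loci matched in both lists (log axes, strongest at the upper right); blue points are the 15 reproducible summits and the line marks equal ranks. The reproducible summits reach no further than rank 5475 in replicate 1 and rank 3029 in replicate 3, and their list was itself selected from these replicates.

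Forkhead words were not more frequent at these summits than at others. The 8 words searched, on both strands and within 100 bp of the summit, were AAACA or AAATA with GT, GC, AT or AC in front, and none of them is contained in the Su(H) words given further on. At least 1 was present at 7 of the 15 reproducible summits (46.7%, exact 95% interval 21.3 to 73.4%), against 60.0% of all reproducible summits, which lies inside that interval. The strict word GTAAACA was at none of the 15 (0 of 15, which allows a share of up to 20.0% by a limit of 3 counts and 21.8% by the exact 95% interval), against 7.43% of all. Over the pooled summits of the loci 53 of 124 had a forkhead word (42.7%, exact 95% interval 33.9 to 51.9%), against 50.1% of all pooled summits, and 5 had the strict word (4.03%), against 5.93%. Of the 15 reproducible summits, the 2 nearest to a forkhead word were that at CG8067 in the mam locus (GTAAATA centred 1 bp away) and that at scat in the numb locus (ATAAATA, 6 bp away). The highest summit of the 10 loci, in mam, had none.

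Words bound by Su(H), the pathway's own DNA-binding protein, were searched in the same way. GTGGGAA or GTGAGAA was within 100 bp of none of the 15 reproducible summits (0 of 15, with the same limits of 20.0% and 21.8%), against 4.34% of all reproducible summits. Over the pooled summits 7 of 124 had one (5.65%, exact 95% interval 2.30 to 11.3%), against 4.44%. Those 7 lay in the loci of N (2), mam (2), fng (2) and numb (1). The highest ranked of them lay in an intron of mam at pooled rank 4819, 7295 bp downstream of a start. The base composition of the 15 windows was AT-rich: GC content ran from 22.4 to 40.8% with a median of 31.3%, where all reproducible summits had a median of 33.3% and quartiles of 29.4 and 37.8%.

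A further 52 genes of the pathway were counted by list, all found in the annotation. Of these 9 had a reproducible summit within 1000 bp of a start (17.3%), against the 20.8% of all protein-coding genes. The nuclear partner list had 4 of 11: gro, the corepressor recruited by the target bHLH proteins, nej, a histone acetyltransferase, and skd and Cdk8 of the Mediator kinase module. The receptor cleavage list had 1 of 5, the gamma-secretase subunit gene aph-1, and the folding and sugar list 1 of 2, rumi, an O-glucosyltransferase of Notch. The trafficking list had 1 of 13, AP-2alpha, a clathrin adaptor subunit, and the list of ligand endocytosis and ubiquitin ligases none of 8. The target list had 2 of 13, E(spl)m3-HLH and E(spl)m2-BFM. Over all pooled peaks 34 of the 52 had a start-site summit (65.4%), against 58.4% of protein-coding genes.

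The strongest of these were at nej and gro. The nej summit 710 bp upstream of a start had signals of 593.2 (pooled, rank 294), 322.1 (replicate 1, rank 267) and 266.5 (replicate 3, rank 377). That at gro, 139 bp upstream, had 498.8 (rank 429), 254.4 (rank 421) and 244.2 (rank 445) in the same order. Both were ranked alike by the replicates. The E(spl)m3-HLH summit, 394 bp upstream, had 468.4 (rank 474), 203.0 (rank 637) and 272.1 (rank 361), and the E(spl)m2-BFM summit had 115.6 (rank 3881), at the lower end of the list. The others were aph-1 (464.7, rank 482, nearer to the start of Snx21), rumi (346.7, rank 822), AP-2alpha (311.0, rank 1000, nearer to that of ebi), skd (236.7, rank 1506, nearer to that of Pdss2) and Cdk8 (135.4, rank 3212). The stronger nej summit was nearer to the start of lncRNA:CR42657, and the E(spl)m3-HLH summit to that of lncRNA:CR43644. Second, weaker reproducible summits lay upstream of aph-1 (198 bp, 160.3, rank 2615), nej (436 bp, 149.5, rank 2831) and gro (122 bp, 184.6, rank 2158). Each of these had a start of its own list gene nearest.

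The target genes of the E(spl) complex, the bHLH repressors and Bearded-family genes that Notch activates, lie together in 43.4 kb of chr3R (25997621 to 26041008). That stretch held 5 reproducible summits, or 11.5 per 100 kb, where the chromosome arms had 2.93 and the upper quartile of protein-coding loci was 8.34. The stretch was counted without flanks, whereas those loci are single genes with 10 kb added each side. The region was looked at after its summits had been seen. The 5 lay between the upstream side of E(spl)malpha-BFM and E(spl)m3-HLH. Besides those at E(spl)m3-HLH and E(spl)m2-BFM they lay 1762 bp upstream of E(spl)malpha-BFM (signal 326.8, rank 919), 317 bp upstream of Kaz-m1 (130.5, rank 3347) and 587 bp into lncRNA:CR43644 (115.3, rank 3891). In the part with E(spl)m7-HLH and E(spl)m8-HLH the highest pooled signal was 65.8 (rank 7872), 339 bp upstream of E(spl)m7-HLH. The reproducible summits of gro, at 26041614 and 26042502, lay just past that end of the stretch.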

How the data were processed

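The deposited peak lists were used as given, on build dm6 per the labels: 1 per replicate, 1 of both replicates pooled, and 1 selected by irreproducible discovery rate. No source used here gives the peak caller, the aligner or the threshold. The authors' deposited score of each peak (its signal over a control, per the deposited descriptions) ranks peaks within a list, and the deposited −log10 q-value was used only for a limit of 0.05. Summits are the peak start plus the deposited offset. No peak ran past a chromosome end of the Release 6 sequence, and all 10 genes had the same coordinates in RefSeq. Genes came from Ensembl release 115. Dl was matched as Delta, because RefSeq lists Dl as a synonym of both Delta and dl.

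A match is an overlap of at least 1 bp with a peak of a replicate list. With 1 group there was no contrast and no test was made; counts stand beside those of all genes or summits. The members and lists were chosen with earlier results of these data known. The text names the 10 genes, every reproducible summit of their loci, the highest pooled summit of genes without one, and list genes with a reproducible start-site summit; sequences show the highest reproducible summit of the N, H, neur and numb loci, and the inner starts of neur and numb and other singled-out summits were chosen after their values were seen. No sequence of the mam locus is shown. The replicates carry separate biosample labels. Counters were tested on simulated data. The software was Python 3.11.15 with pandas 2.3.3, numpy 2.4.6 and scipy 1.17.1, and figures came from matplotlib 3.10.9.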

Additional observations from a re-analysis of the deposited data

How the results depend on the processing

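Of 53 alternatives to 7 counts, 36 gave a count within 1.5 times of the one reported. Without replicate 3 or without replicate 1 (the 3917 highest peaks of the other) the counts were 5 to 6 genes with a summit in the locus, 14 to 18 summits, 3 genes with a start-site summit both times, 7 to 8 summits with a forkhead word, 0 to 1 with a Su(H) word (1 without replicate 3) and 8 to 13 list genes. All pooled peaks gave 10 genes, 124 summits, 8 genes with a start-site summit and 34 list genes, and the 10181 pooled peaks with a q-value of at most 0.05 gave 8, 46, 6 and 24. These longer lists count more peaks by construction, and for the q-value limit no share over all genes was counted. The loci without a peak at that limit were those of Dl and Ser. The 1958 highest reproducible peaks held 9 summits, all matched in both replicates. Matches of reproducible peaks are largely built in, since their list was selected from the same replicates. With loci extended by 20 kb there were 26 summits, all matched, and 16 had a forkhead word (61.5%), where the gene bodies alone held 10 summits, 4 of them with one. At the same motif window 60.0% of all reproducible summits had one. With a motif window of 250 bp each side, 13 of 15 summits had a forkhead word and 2 a Su(H) word. A wider window holds more words by construction. The shares over all reproducible summits were not counted at that window, so these 2 counts have no background beside them. No paired analysis was possible because there is 1 group. Depth is unknown, and with 15 summits a share carries a wide interval.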
